A study of Mus musculus with 11 samples.

Results

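Interferon-stimulated genes are best known through a small set of antiviral effectors, and 10 that are studied less often are described here: *Rtp4*, *Xaf1*, *Ddx60*, *Samd9l*, *Epsti1*, *Cmpk2*, *Ifi44*, *Ifi35*, *Phf11d* and *Lgals3bp*. They were taken by gene name from the deposited tables, where each name had 1 entry, so 10 of 26283 genes were covered. RNA was sequenced from 11 bulk mammary tumors of female C57BL/6 mice that carried both MMTV-PyMT, which drives mammary tumors, and MMTV-Cre. For 6 tumors both copies of *Pcbp1* were floxed (*Pcbp1*(fl/fl), named PyMT *Pcbp1*–/–), and for 5 tumors both were wild type (*Pcbp1*(wt/wt), named PyMT *Pcbp1*+/+). By the study's description the mice were 18 weeks old. The promoter of MMTV-Cre is active in the mammary epithelium, and which cells of these bulk tumors lost *Pcbp1* was not measured. Pcbp1 is a protein that binds poly(C) stretches in RNA and DNA. Each tumor had between 10543189 and 14092192 estimated counts, and 3 counts corresponded to between 0.213 and 0.285 CPM, that is, counts scaled to a common library total.

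Type I interferons bind a receptor built from Ifnar1 and Ifnar2, and the kinases Jak1 and Tyk2 then activate a complex of transcription factors. That complex enters the nucleus and binds interferon-stimulated response elements near the starts of its target genes. Cells of the epithelium, stroma and immune system can all respond, and some target genes keep a low level of expression without added interferon.

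*Pcbp1* itself was measured first as a check of the labels. Its CPM in PyMT *Pcbp1*–/– tumors had a lowest value of 15.4, a median of 20.9 and a highest value of 33.6, whereas the values in PyMT *Pcbp1*+/+ tumors, in replicate order, were 268, 271, 225, 220 and 259. Every PyMT *Pcbp1*–/– tumor lay under every PyMT *Pcbp1*+/+ tumor, and the log2 fold change was -3.43 (SE 0.19, edgeR adjusted p = 4.72e-06). The remaining *Pcbp1* RNA was not assigned to a cell type.

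Of the 10 genes, 7 had less RNA in PyMT *Pcbp1*–/– tumors by edgeR's quasi-likelihood test, at an adjusted p under 0.05, against 1.66% of the 19232 genes tested. That count was 3 without PyMT *Pcbp1*–/– replicate 3 or PyMT *Pcbp1*+/+ replicate 4, against 0.755% and 0.762% of all genes tested. It was 4 without PyMT *Pcbp1*–/– replicate 4 or 5 or PyMT *Pcbp1*+/+ replicate 3, against 0.777%, 0.856% and 0.946%. At a p under 0.001 with a change over 2-fold, sizes that the study used, and with the p taken here as unadjusted, 6 of 10 were lower, against 0.572% of all genes tested. The highest PyMT *Pcbp1*–/– value lay under the lowest PyMT *Pcbp1*+/+ value for 2 of 10, *Ifi44* and *Lgals3bp*, against 2.02% of all genes tested. All 10 passed the filter on low counts, and no gene of the list was higher at these thresholds. The median log2 fold change was -1.32 over the 10 genes and -0.000123 over all genes tested. *Xaf1* and *Ifi44* are among the lowered genes that the study displays from these same tumors. All 10 genes were measured in those tumors, and the list was chosen with earlier results of these data known. The direction of none of them is independent evidence. In bulk tumors, fewer cells of a responding type and less RNA per cell cannot be told apart.

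PyMT *Pcbp1*+/+ replicate 5 stood apart from the other tumors of its group. It had the lowest PyMT *Pcbp1*+/+ value for 9 of the 10 genes, and for the 7 lowered genes its CPM was between 0.282 and 0.535 times the mean of the other PyMT *Pcbp1*+/+ tumors. Its *Pcbp1* level, 259 CPM, was within the range of its group. Without it, 8 of 10 genes had no overlap between the groups, against 3.62% of all genes tested, and the same count was 5 without PyMT *Pcbp1*–/– replicate 6, against 2.38%.

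**Figure D1:**
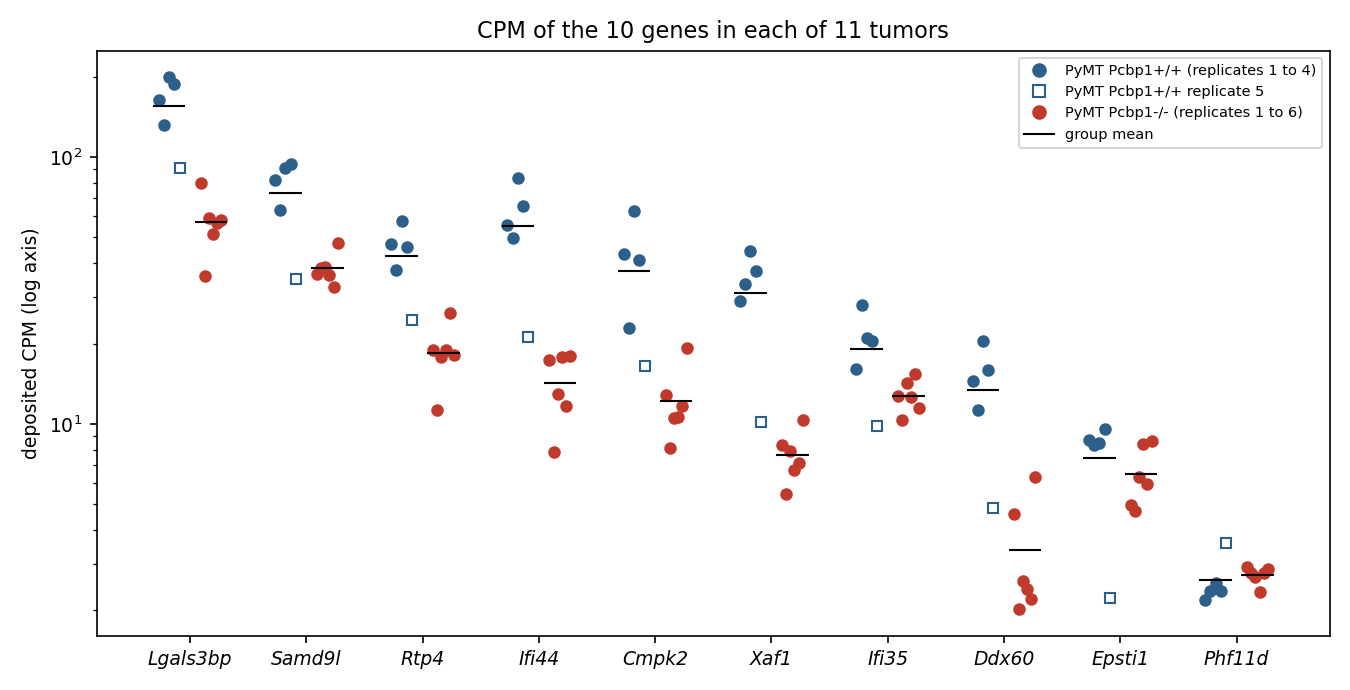
Deposited CPM (log axis) of the 10 genes in each tumor, with PyMT *Pcbp1*+/+ in blue, PyMT *Pcbp1*–/– in red, group means as lines, and PyMT *Pcbp1*+/+ replicate 5 as an open square. The open square is the lowest blue point for 9 of 10 genes, and the groups do not overlap for *Ifi44* and *Lgals3bp*.

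*Ddx60* (ENSMUSG00000037921.15, GRCm38 chr8:61928087-62038244, plus strand) encodes a helicase of the DExD/H-box family that has been linked to the sensing of viral RNA. Its CPM in PyMT *Pcbp1*–/– tumors ran from 2.02 through a median of 2.50 to 6.34. Across PyMT *Pcbp1*+/+ tumors, in replicate order, it was 14.4, 11.3, 20.4, 15.9 and 4.82 CPM. The groups overlapped through 1 tumor on each side, PyMT *Pcbp1*–/– replicate 6 and PyMT *Pcbp1*+/+ replicate 5. The mean was 3.36 ± 1.74 (SD, n = 6) against 13.4 ± 5.81 (SD, n = 5). The log2 fold change was -1.99 (SE 0.38, edgeR adjusted p = 0.0196), and *Ddx60* fell 3.98-fold. The adjusted p rose to between 0.0522 and 0.0573 without PyMT *Pcbp1*–/– replicate 3, 4 or 5 or without PyMT *Pcbp1*+/+ replicate 3 or 4.

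*Samd9l* (ENSMUSG00000047735.14, GRCm38 chr6:3372257-3399572, minus strand) encodes a cytoplasmic protein known for restricting poxviruses and cell growth. PyMT *Pcbp1*–/– tumors had CPM between 32.7 and 47.7, with a median of 37.5. The 5 PyMT *Pcbp1*+/+ values were 81.9, 63.5, 91.3, 94.6 and 34.8. Replicates 1 to 4 of PyMT *Pcbp1*+/+ were above every PyMT *Pcbp1*–/– tumor, but 5 of 6 PyMT *Pcbp1*–/– tumors were above replicate 5. *Samd9l* was 1.90-fold lower, with a log2 fold change of -0.93 (SE 0.21, edgeR adjusted p = 0.0384). This call was lost, with an adjusted p between 0.0561 and 0.102, without any 1 of PyMT *Pcbp1*–/– replicates 1 to 5 or PyMT *Pcbp1*+/+ replicates 1, 3 and 4, and without PyMT *Pcbp1*+/+ replicate 5 the adjusted p was 0.00181. Limma on log2(CPM + 1) and on log2(CPM + 0.1) also lost the call, with an adjusted p of 0.0756 and 0.0768, in a range of 0.00181 to 0.102 over all alternatives.

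*Rtp4* (ENSMUSG00000033355.6, GRCm38 chr16:23520291-23614222, plus strand) encodes a chaperone that helps receptors reach the cell surface and is also an interferon-induced antiviral protein. In PyMT *Pcbp1*–/– tumors its lowest, median and highest CPM were 11.3, 18.5 and 26.0. The 5 PyMT *Pcbp1*+/+ tumors had, in replicate order, 47.4, 37.7, 57.8, 45.8 and 24.6 CPM. Only PyMT *Pcbp1*–/– replicate 5 reached into the PyMT *Pcbp1*+/+ range, above replicate 5 of that group. *Rtp4* was 2.30-fold lower (log2 fold change -1.20, SE 0.23, edgeR adjusted p = 0.0181), with an adjusted p of 0.0540 without PyMT *Pcbp1*–/– replicate 3 and 0.0509 without PyMT *Pcbp1*+/+ replicate 4. Its start overlaps *Masp1* on the opposite strand and a processed transcript on its own strand, and whether counting used strand is not given in the sources used here. *Masp1* had a mean of 4.22 CPM in PyMT *Pcbp1*–/– and 4.76 CPM in PyMT *Pcbp1*+/+ tumors (log2 fold change -0.14, SE 0.48, edgeR adjusted p = 0.901).

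*Cmpk2* (ENSMUSG00000020638.8, GRCm38 chr12:26469204-26479837, plus strand) encodes a mitochondrial nucleoside monophosphate kinase. Its CPM in PyMT *Pcbp1*–/– tumors had a lowest value of 8.10, a median of 11.2 and a highest value of 19.3. The PyMT *Pcbp1*+/+ values in replicate order were 43.5, 23.0, 62.6, 41.1 and 16.4 CPM. PyMT *Pcbp1*–/– replicate 6 was the 1 tumor of its group above PyMT *Pcbp1*+/+ replicate 5, and the PyMT *Pcbp1*+/+ values were spread with a coefficient of variation of 49.0%. *Cmpk2* was 3.07-fold lower (log2 fold change -1.62, SE 0.32, edgeR adjusted p = 0.0249). The adjusted p was between 0.0543 and 0.0684 without PyMT *Pcbp1*–/– replicate 3, 4 or 5 or PyMT *Pcbp1*+/+ replicate 1, 3 or 4. Its nearest tested protein-coding neighbour on chromosome 12 is *Rsad2*, which encodes the antiviral enzyme viperin and lies 12752 bases away. *Rsad2* fell from a mean of 38.5 to 4.66 CPM (log2 fold change -3.05, SE 0.40, edgeR adjusted p = 0.00337). It was the 1 lowered gene among the 19 nearest tested protein-coding neighbours of the 10 genes, against 1.66% of all genes tested.

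*Xaf1* (ENSMUSG00000040483.15, GRCm38 chr11:72301629-72313733, plus strand) encodes a partner of the apoptosis inhibitor Xiap and is known to promote cell death. In PyMT *Pcbp1*–/– tumors its CPM ran from 5.47 through a median of 7.54 to 10.4. By replicate, PyMT *Pcbp1*+/+ tumors gave 29.0, 33.6, 44.3, 37.5 and 10.2 CPM. In these deposited CPM, PyMT *Pcbp1*–/– replicate 6 lay just above PyMT *Pcbp1*+/+ replicate 5, and all other PyMT *Pcbp1*–/– tumors lay under all 5. *Xaf1* was 4.03-fold lower (log2 fold change -2.01, SE 0.30, edgeR adjusted p = 0.00557), and its log2 fold change stayed between -2.23 and -1.79 when each tumor was left out in turn. *Xiap* had a mean of 140 CPM in PyMT *Pcbp1*–/– and 118 CPM in PyMT *Pcbp1*+/+ tumors (log2 fold change 0.24, SE 0.098, edgeR adjusted p = 0.206).

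*Ifi44* (ENSMUSG00000028037.13, GRCm38 chr3:151730922-151749960, minus strand) encodes an interferon-induced cytoplasmic protein. Its lowest, median and highest CPM in PyMT *Pcbp1*–/– tumors were 7.87, 15.2 and 17.9. In replicate order, PyMT *Pcbp1*+/+ tumors gave 55.5, 49.8, 83.4, 65.4 and 21.2 CPM. The groups did not overlap, and the lowest PyMT *Pcbp1*+/+ value was that of replicate 5. *Ifi44* was 3.86-fold lower (log2 fold change -1.95, SE 0.31, edgeR adjusted p = 0.00742). Its relative *Ifi44l* was at 0 in 7 of 11 tumors and was not tested.

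*Lgals3bp* (ENSMUSG00000033880.11, GRCm38 chr11:118392751-118402092, minus strand) encodes a secreted glycoprotein that binds galectin-3. PyMT *Pcbp1*–/– tumors had a lowest value of 35.9, a median of 57.5 and a highest value of 80.0 CPM. For PyMT *Pcbp1*+/+ the CPM by replicate number were 164, 131, 199, 188 and 91.3. The groups did not overlap, with PyMT *Pcbp1*–/– replicate 1 closest to PyMT *Pcbp1*+/+ replicate 5. *Lgals3bp* was 2.72-fold lower (log2 fold change -1.44, SE 0.22, edgeR adjusted p = 0.00561), and no left-out tumor ended the call. *Lgals3*, which encodes galectin-3, had means of 20.3 and 24.7 CPM in PyMT *Pcbp1*–/– and PyMT *Pcbp1*+/+ tumors (log2 fold change -0.26, SE 0.41, edgeR adjusted p = 0.767).

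*Ifi35* and *Epsti1* did not pass the test. *Ifi35* (ENSMUSG00000010358.13, GRCm38 chr11:101448407-101458698, plus strand) encodes a leucine zipper protein that binds Nmi, and its CPM ran from 10.3 through a median of 12.6 to 15.4 in PyMT *Pcbp1*–/– tumors. Values of PyMT *Pcbp1*+/+ tumors by replicate number were 16.0, 27.9, 21.0, 20.5 and 9.85 CPM. The first 4 lay above all PyMT *Pcbp1*–/– tumors and the fifth lay under all of them. The *Ifi35* log2 fold change was -0.57 (95% interval -1.03 to -0.11, edgeR adjusted p = 0.175), and it was -0.72 with an adjusted p of 0.0520 without PyMT *Pcbp1*+/+ replicate 5, in a range of 0.0520 to 0.358 over all alternatives. An antisense transcript overlaps *Ifi35*, with means of 0.565 and 0.554 CPM. *Nmi* had a log2 fold change of -0.63 (SE 0.28, edgeR adjusted p = 0.259).

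*Epsti1* (ENSMUSG00000022014.15, GRCm38 chr14:77904239-78002657, plus strand) was named for its induction when epithelial and stromal cells meet. Its lowest, median and highest CPM in PyMT *Pcbp1*–/– tumors were 4.72, 6.14 and 8.66. In PyMT *Pcbp1*+/+ tumors, by replicate number, they were 8.68, 8.35, 8.50, 9.57 and 2.23 CPM. The groups overlapped also without replicate 5, which was the lowest of all 11 tumors. The *Epsti1* log2 fold change was -0.18 (95% interval -0.83 to 0.47, edgeR adjusted p = 0.779), and it was -0.41 with an adjusted p of 0.264 without PyMT *Pcbp1*+/+ replicate 5, in a range of 0.264 to 0.929 over all alternatives. A decrease to the size seen for *Rtp4* lies outside that 95% interval.

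*Phf11d* belongs to a cluster of related genes on chromosome 14 that encode proteins with a PHD finger, and its identity in the deposited tables was not certain. The gene deposited as *Phf11d* (ENSMUSG00000091144.2, GRCm38 chr14:59380833-59395381, minus strand) lies where RefSeq places *Phf11c*. The gene deposited as *Phf11c* (ENSMUSG00000068245.14, chr14:59347407-59365470, minus strand) lies where RefSeq places *Phf11d*, and a later GENCODE release gives these identifiers the same exchanged names. For the other 9 genes the deposited name was also the RefSeq name at that place. This was noticed after the data were examined, and both genes are given here. Reads may have been divided between the copies, which was not tested, and both levels are uncertain. The deposited estimated counts of both genes were whole numbers in every tumor.

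The gene deposited as *Phf11d* had CPM between 2.34 and 2.90 in PyMT *Pcbp1*–/– tumors, with a median of 2.77. Replicate by replicate, PyMT *Pcbp1*+/+ had 2.19, 2.37, 2.54, 2.37 and 3.57 CPM. The groups overlapped, and PyMT *Pcbp1*+/+ replicate 5 was the highest of all tumors. Its log2 fold change was 0.05 (95% interval -0.35 to 0.45, edgeR adjusted p = 0.914), from counts between 24 and 40 per tumor. The gene deposited as *Phf11c* had CPM of 9.97, 15.2 and 18.7 as lowest, median and highest in PyMT *Pcbp1*–/– tumors. Its PyMT *Pcbp1*+/+ values, in replicate order, were 32.3, 23.4, 47.5, 41.7 and 13.0 CPM. Here replicates 1 to 4 were above every PyMT *Pcbp1*–/– tumor and replicate 5 was within their range. The log2 fold change was -1.09 (SE 0.29, edgeR adjusted p = 0.0721), and it was -1.27 with an adjusted p of 0.0168 without PyMT *Pcbp1*+/+ replicate 5. DESeq2 and limma-voom with sample quality weights gave adjusted p values of 0.0105 and 0.0207 for it, in a range of 0.0105 to 0.164 over all alternatives. With this gene in place of the one deposited as *Phf11d*, an alternative chosen after seeing the data, 7 of 10 genes were again lower.

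**Figure D2:**
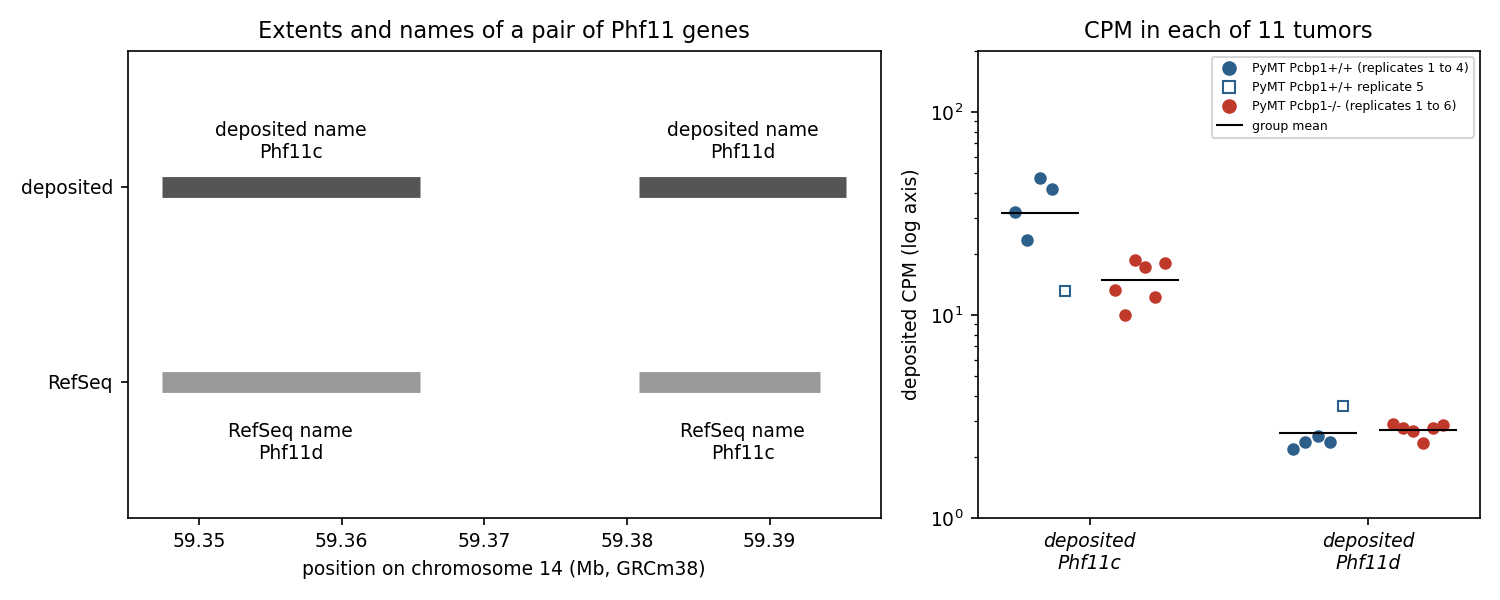
Left, extents on chromosome 14 (Mb, GRCm38) of the genes deposited as *Phf11c* and *Phf11d*, above the RefSeq genes at the same places, whose names are exchanged. Right, deposited CPM (log axis) of both in each tumor with group means as lines, where the gene deposited as *Phf11d* stays between 2.19 and 3.57 CPM.

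**Figure D3:**
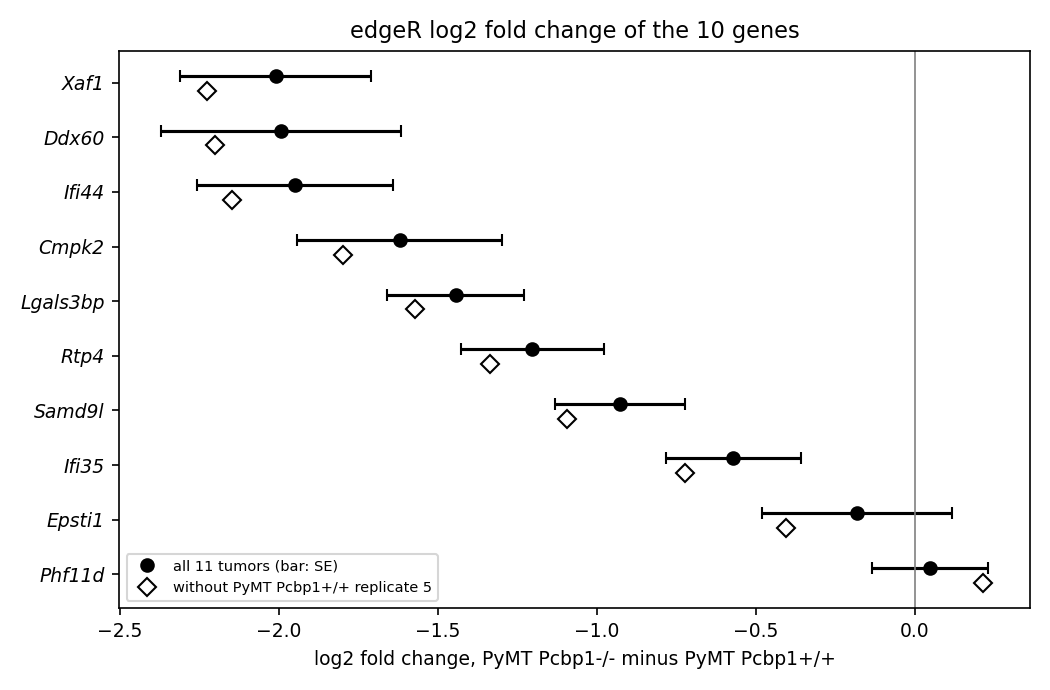
Log2 fold change (PyMT *Pcbp1*–/– minus PyMT *Pcbp1*+/+) of the 10 genes from edgeR, with all 11 tumors as filled circles with SE and without PyMT *Pcbp1*+/+ replicate 5 as open diamonds. The open diamonds lie farther from 0 for all 10 genes, from -2.23 for *Xaf1* to 0.21 for the gene deposited as *Phf11d*.

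Levels of the 10 genes were compared with each other as mean CPM per kb of exon, with exon lengths between 2.45 and 8.70 kb. In PyMT *Pcbp1*+/+ tumors *Lgals3bp* was highest at 29.4 ± 8.36 (SD, n = 5) CPM per kb. *Samd9l* at 12.5 ± 4.19, *Rtp4* at 10.1 ± 2.92, *Ifi44* at 8.94 ± 3.71, *Cmpk2* at 8.64 ± 4.23, *Xaf1* at 6.51 ± 2.72 and *Ifi35* at 4.99 ± 1.75 CPM per kb followed. Neighbours from *Samd9l* to *Ifi35* in this order differed by less than the larger of their SDs. *Epsti1* at 3.05 ± 1.21, *Ddx60* at 1.54 ± 0.668 and the gene deposited as *Phf11d* at 0.754 ± 0.160 CPM per kb were lowest. In PyMT *Pcbp1*–/– tumors *Lgals3bp* (10.8 ± 2.70 CPM per kb, SD, n = 6) and *Samd9l* (6.53 ± 0.861) were again highest, and *Ddx60* (0.387 ± 0.200) was lowest.

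Within groups, 9 of the 10 genes varied in the same direction as the rest of the list from tumor to tumor. After the group mean was subtracted from log2(CPM + 0.5), the correlation of each gene with the mean of the other 9 over 11 tumors was 0.965 for *Xaf1*, 0.943 for *Ifi44*, 0.890 for *Ddx60*, 0.875 for *Cmpk2*, 0.867 for *Samd9l* and 0.854 for *Lgals3bp*. *Epsti1* had 0.838, *Rtp4* 0.789 and *Ifi35* 0.622, whereas the gene deposited as *Phf11d* had -0.681. The closest single pairs were *Ddx60* with *Cmpk2*, at 0.908, and *Xaf1* with *Ifi44*, at 0.907. Without PyMT *Pcbp1*+/+ replicate 5, a setting chosen after seeing the data, the correlations with the mean of the other genes were 0.889 for *Xaf1*, 0.864 for *Ifi44*, 0.836 for *Cmpk2*, 0.790 for *Ddx60*, 0.770 for *Lgals3bp*, 0.584 for *Rtp4*, 0.521 for *Samd9l*, 0.413 for *Epsti1*, -0.095 for *Ifi35* and 0.300 for the gene deposited as *Phf11d*. The values are descriptions of these libraries, and genes measured in the same library share its depth and composition.

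Among 13471 other protein-coding genes with a mean of at least 1 CPM, the 10 with a pattern over 11 tumors most like the mean of the list were *Ifit3*, *Oasl2*, *Apol9b*, *Irf9*, *Trim34a*, *Usp18*, *Stat2*, *Oas1g*, *Parp12* and *Ifit1*. Their correlations over all 11 tumors ran from 0.976 to 0.990 and include the difference between the groups. Within groups they ran from 0.929 for *Stat2* to 0.980 for *Oasl2*, and without PyMT *Pcbp1*+/+ replicate 5 from 0.755 for *Oas1g* to 0.934 for *Ifit3*.

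Genes of the receptor pathway were divided, and the counts of lowered genes here stand beside 1.66% of all genes tested. Among genes from receptor to transcription factor complex, *Stat2* (log2 fold change -1.42, SE 0.24, edgeR adjusted p = 0.0112) and *Irf9* (-0.85, SE 0.17, adjusted p = 0.0254) were lower. The receptor genes *Ifnar1* and *Ifnar2* had log2 fold changes of 0.09 (SE 0.12) and -0.02 (SE 0.16). Of 9 interferon regulatory factors and feedback genes, *Irf7* (-2.89, SE 0.31, adjusted p = 0.00194) and *Usp18* (-1.63, SE 0.34, adjusted p = 0.0309) were lower. Of 10 tested relatives and partners of the list, the RNA sensor genes *Ddx58* (-0.98, SE 0.15, adjusted p = 0.00618) and *Ifih1* (-0.78, SE 0.16, adjusted p = 0.0307) were lower, and none of these 3 lists held a higher gene. Among 17 well studied interferon-stimulated genes 16 were lower, with a median log2 fold change of -2.56, and *Ifitm3* was not (-0.94, SE 0.25, adjusted p = 0.0740). The study itself reports *Isg15*, *Ifit1*, *Rsad2* and *Bst2* of this list as lowered, so this count is not independent evidence. PyMT *Pcbp1*+/+ replicate 5 had the lowest summed CPM of its group for each of these lists. For the 17 genes its sum was 267 CPM, against 688 to 925 CPM in the other tumors of its group. In PyMT *Pcbp1*–/– tumors that sum was 124 to 219 CPM. For the 9 regulatory factors and feedback genes the corresponding sums were 188, 303 to 354 and 159 to 202 CPM.

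Markers of other cell types were read beside these values, and by edgeR 0 of the 64 tested genes of 12 marker lists were called in either direction, against 2.27% of all genes tested, so the count is near the background. At an unadjusted p under 0.05, 4 of 64 were lower (*Csn3*, *Kit*, *Krt14* and *Clec9a*), against 18.7% of all genes tested that passed in either direction. In counts added after seeing the data, DESeq2 called 0 of the 64, and limma-voom with sample quality weights called *Csn3* and *Clec9a* lower. With these 2 fits, 6.27% and 11.2% of all genes tested were called in either direction. Luminal epithelial markers of the labelled mammary tissue, 11 genes, were abundant in every tumor. Their PyMT *Pcbp1*+/+ sums by replicate were 4800, 2350, 3160, 4420 and 3920 CPM, beside 2140, 2770 and 3220 CPM as lowest, median and highest in PyMT *Pcbp1*–/– tumors, so the groups overlapped while the median was lower in PyMT *Pcbp1*–/–. *Csn3*, a milk casein, was the most abundant of them, with a mean CPM of 1420 ± 683 (SD, n = 5) in PyMT *Pcbp1*+/+ against 609 ± 319 (SD, n = 6) in PyMT *Pcbp1*–/– tumors and a log2 fold change of -1.22 (SE 0.43, edgeR adjusted p = 0.150), and edgeR called it lower without PyMT *Pcbp1*+/+ replicate 2. The median log2 fold change of the 11 genes was -0.0531.

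PyMT *Pcbp1*+/+ replicate 5 also had the lowest summed CPM of all tumors for the macrophage, T cell and basal lists. For 10 macrophage genes the PyMT *Pcbp1*+/+ sums by replicate were 255, 179, 300, 239 and 134 CPM, beside 182, 258 and 377 CPM as lowest, median and highest in PyMT *Pcbp1*–/– tumors. *C1qb* was the most abundant of them, at a mean of 61.6 CPM in PyMT *Pcbp1*+/+ and 69.1 CPM in PyMT *Pcbp1*–/– tumors, and no macrophage gene was at 0 in any tumor. For 9 T cell genes, 4 of them tested, the PyMT *Pcbp1*+/+ sums by replicate were 10.6, 6.64, 8.94, 11.1 and 3.84 CPM, beside 4.27, 7.14 and 10.3 CPM as lowest, median and highest in PyMT *Pcbp1*–/– tumors. *Cd8a* was the most abundant, at 2.57 and 2.17 CPM, and *Cd3d* was at 0 in 5 of 11 tumors. For 7 basal and myoepithelial genes the PyMT *Pcbp1*+/+ sums by replicate were 831, 387, 264, 303 and 93.9 CPM, beside 123, 350 and 400 CPM as lowest, median and highest in PyMT *Pcbp1*–/– tumors. *Oxtr* was the most abundant, at 108 and 102 CPM. The part of cell composition in the differences between the groups was not tested.

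The starts of the genes were searched for motifs in the RefSeq promoter table (GRCm38.p6, 250 bases before to 50 after the start), which held 9 of the 10 by name, and *Rtp4* is named only. GAAANNGAA, the core spacing of an interferon-stimulated response element, was in 3 of 9 on either strand (*Ddx60*, *Samd9l* and *Ifi44*), against 8.56% of 32851 promoters. TTCNNNGAA, the core of a gamma-interferon activated site, was in 1 of 9 (*Ifi35*), against 8.30%. CGAAACT, a motif chosen after the sequences were seen, was in 5 of 9 by name (*Ddx60*, *Samd9l*, *Xaf1*, *Lgals3bp* and the gene RefSeq names *Phf11d*). With the promoter of the gene deposited as *Phf11d*, which RefSeq names *Phf11c* (an alternative chosen after seeing the data), it was in 4 of 9, and the counts for the other motifs were the same. The RefSeq start of that promoter lies 1869 bases inside the gene as deposited, so the deposited start was not searched, while for the other 8 genes the starts are at most 133 bases apart. CGAAACT is in 0.935% of all promoters, but it was picked from these sequences, so its counts describe that choice and are not compared with this share. No motif was found for *Cmpk2* or *Epsti1*, nor for the gene RefSeq names *Phf11c*. A match describes letters in this window and is not evidence of binding.

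Windows from 120 bases before to 50 after the start are shown for genes with a match to the first or the third motif, to let the place of the letters be seen, and for the *Phf11* pair since the names are exchanged. Capitals mark GAAANNGAA and CGAAACT on either strand, and in *Ddx60* both motifs overlap at each of 2 places.
*Ddx60* (GRCm38.p6 chr8:61927967-61928136, plus strand): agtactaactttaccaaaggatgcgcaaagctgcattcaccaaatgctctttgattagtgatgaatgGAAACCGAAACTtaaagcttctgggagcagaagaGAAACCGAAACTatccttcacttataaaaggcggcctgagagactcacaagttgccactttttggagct
*Samd9l* (GRCm38.p6 chr6:3399522-3399691, minus strand): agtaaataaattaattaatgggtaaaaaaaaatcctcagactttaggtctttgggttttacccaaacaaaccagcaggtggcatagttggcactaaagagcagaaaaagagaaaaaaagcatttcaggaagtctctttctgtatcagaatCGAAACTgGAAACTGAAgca
*Xaf1* (GRCm38.p6 chr11:72301509-72301678, plus strand): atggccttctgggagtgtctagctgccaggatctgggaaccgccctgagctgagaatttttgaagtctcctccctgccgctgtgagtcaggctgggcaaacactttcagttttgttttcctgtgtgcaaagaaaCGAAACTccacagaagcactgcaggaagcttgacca
*Lgals3bp* (GRCm38.p6 chr11:118401910-118402079, minus strand): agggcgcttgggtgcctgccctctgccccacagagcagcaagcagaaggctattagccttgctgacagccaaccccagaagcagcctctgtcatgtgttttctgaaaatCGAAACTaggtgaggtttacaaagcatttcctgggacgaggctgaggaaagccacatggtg
*Ifi44* (GRCm38.p6 chr3:151749861-151750030, minus strand): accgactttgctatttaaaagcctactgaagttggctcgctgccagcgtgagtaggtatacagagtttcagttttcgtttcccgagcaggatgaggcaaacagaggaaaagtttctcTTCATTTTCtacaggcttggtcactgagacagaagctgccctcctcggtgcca
RefSeq *Phf11d* (GRCm38.p6 chr14:59365441-59365610, minus strand): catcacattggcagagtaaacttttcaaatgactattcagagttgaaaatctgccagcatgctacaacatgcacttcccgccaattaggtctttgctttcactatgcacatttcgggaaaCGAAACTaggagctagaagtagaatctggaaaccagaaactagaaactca
RefSeq *Phf11c* (GRCm38.p6 chr14:59393463-59393632, minus strand): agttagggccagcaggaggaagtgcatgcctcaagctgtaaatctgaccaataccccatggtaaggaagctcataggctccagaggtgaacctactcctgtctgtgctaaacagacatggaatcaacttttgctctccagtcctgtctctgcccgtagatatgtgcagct
In *Ddx60* the GAAANNGAA matches begin 53 and 19 bases before the start. In *Samd9l* CGAAACT and GAAANNGAA begin at bases 31 and 39 of the transcript, and in *Xaf1* CGAAACT begins at base 15. In the pair of *Phf11* genes, the one RefSeq names *Phf11d* has CGAAACT beginning at the RefSeq start, base 1 of the transcript. The one RefSeq names *Phf11c*, whose level is that of the gene deposited as *Phf11d*, has neither motif in the window at its RefSeq start.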

How the data were processed

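RNA of 11 tumors (6 PyMT *Pcbp1*–/– and 5 PyMT *Pcbp1*+/+, grouped by sample title, 1 batch in the labels) was sequenced as stranded poly(A) libraries. Per the submitters' processing notes and the methods, the authors used FastQC, Bowtie2 with GRCm38, and Partek Flow; the annotation, counting method and use of strand are not given in the sources used here. The deposited estimated counts per gene (17.9% to 19.6% not whole per tumor, tolerance 1e-06) were rounded to whole numbers, which the design had taken as counts. The deposited CPM divide these by the tumor's total. The study's own test (Partek's gene-specific analysis) could not be run, and edgeR 4.0.16 was used in R 4.3.3: TMM, filterByExpr, genotype only, the quasi-likelihood test, and Benjamini-Hochberg adjustment over 19232 genes. Alternatives were DESeq2 1.42.0, limma 3.58.1 (voom with sample quality weights, and log2 of CPM plus 1 or 0.1), other scalings and filters, a replicate block and each tumor left out. The fits were tested on simulated data. Tables were read with Python 3.11.15 and pandas 2.3.3. Exon lengths are the union of exons in GENCODE release 39 for mouse, matched by identifier. All 10 genes of the list are named, with *Pcbp1* first, called genes of the other lists, and the 10 genes most like the list. The genes and lists were chosen with earlier results of these data known. The labels number the tumors without saying that each came from its own mouse, so p-values measure the spread between these samples, and the floor of 3 counts covers counting error only. Some results are not reported here.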

Additional observations from a re-analysis of the deposited data

Results flagged for a closer look

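In 48 groups of values (the 10 genes, *Pcbp1*, the gene deposited as *Phf11c* and 12 marker sums, each in both genotypes), 5 values lay farther from the others of their group than a 95% limit for single extreme values allows, where chance gives about 1 in 20 groups, or 2.4. PyMT *Pcbp1*+/+ replicate 5 gave 2 of them, with *Epsti1* at 2.23 CPM, next to 8.35 in the nearest tumor, and with the gene deposited as *Phf11d* at 3.57 CPM, next to 2.54. The summed basal and myoepithelial markers were 123 CPM in PyMT *Pcbp1*–/– replicate 2, next to 301. The 2 detected B cell markers summed to 2.09 CPM in PyMT *Pcbp1*–/– replicate 6, next to 1.03. Adipocyte markers summed to 91.1 CPM in PyMT *Pcbp1*+/+ replicate 3, next to 15.4.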

How the results depend on the processing

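Over the 9 alternatives other than leaving out a tumor, 86 of 90 values for single genes of the list kept their direction and their side of the threshold, and 4 lost the call: *Samd9l* with limma on log2(CPM + 1) and log2(CPM + 0.1) (adjusted p = 0.0756 and 0.0768) and *Samd9l* and *Rtp4* with the replicate block (0.0661 and 0.0836), which also leaves out PyMT *Pcbp1*–/– replicate 6, as it has no same-numbered tumor (0.0441 and 0.0386 without that tumor alone). Leaving out 1 tumor at a time, 87 of 110 were unchanged in this sense, 21 lost the call and 2 reversed, both for the gene deposited as *Phf11d* (log2 fold change between -0.0305 and 0.213, with -0.0305 without PyMT *Pcbp1*+/+ replicate 1 and -0.00262 without replicate 4). The number of genes of the list that were lower at an adjusted p under 0.05 was between 3 and 7 with a tumor left out, and the number without overlap between 2 and 8, while the median log2 fold change of the list stayed between -1.45 and -1.16. With all tumors and CPM on TMM-scaled library sizes, 3 genes of the list had no overlap, against 2 in deposited CPM. Over all genes, leaving out a tumor gave between 144 and 389 lower genes (319 with all tumors) and between 41 and 187 higher genes (117). DESeq2 gave 723 lower and 482 higher genes, and 169 and 90 by p under 0.001 and 2-fold, against 110 and 44. Limma-voom with sample quality weights gave 1190 lower and 968 higher genes, and 171 lower by p and fold. By p and fold, 73 genes were higher when low counts were not filtered. Higher genes were 26.8% of the calls with edgeR, 40.0% with DESeq2 and 44.9% with limma-voom with sample quality weights. The cause was not tested. With the replicate block and without PyMT *Pcbp1*–/– replicate 6, 118 genes were lower and 42 higher, and 5 of the 10 were lower, against 212, 69 and 7 without that tumor alone. The labels do not say whether the numbers pair the tumors. Deviations of same-numbered tumors had correlations of 0.134, 0.0867, -0.079, -0.144 and 0.293, and 2 of 5 correlated best with their own number. So few values cannot settle whether the tumors are paired. Taking *Phf11d* by identifier, chosen after seeing the data, left 7 of 10 lower. At this depth, 4 of 9 T cell, 2 of 6 natural killer cell and 1 of 4 neutrophil genes had enough counts to be tested.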

Other observations

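Summed CPM of the marker lists not described above ranged over the 11 tumors as follows. Fibroblast genes had 404 to 1000 CPM in PyMT *Pcbp1*–/– and 404 to 756 CPM in PyMT *Pcbp1*+/+ tumors, led by *Col1a1*. Endothelial genes had 46.1 to 86.7 and 49.1 to 84.6 CPM, led by *Cdh5*. Dendritic cell genes had 13.2 to 28.7 and 17.5 to 27.8 CPM, led by *Zbtb46*, and plasmacytoid dendritic cell genes had 105 to 191 and 108 to 220 CPM, of which *Tcf4* made up most. Adipocyte genes had 1.21 to 36.8 and 4.36 to 91.1 CPM, led by *Cfd*. Natural killer cell genes had 1.35 to 8.27 and 2.23 to 7.97 CPM, and neutrophil genes had 1.35 to 4.27 and 1.18 to 8.63 CPM. Of the B cell genes, *Cd79b* and *Pax5* had sums of 0.534 to 2.09 and 0.714 to 2.02 CPM, and neither was tested.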
